A study of Mus musculus with 3 samples.

Results

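The mRNAs described here are 9 of the 23361 gene rows measured in 3 mouse liver libraries, and they fall in 2 groups. The blood mRNAs are the globins Hba-a1, Hba-a2 and Hbb-b1 together with Alas2, the erythroid form of the enzyme that starts heme synthesis. The heme enzymes are Alas1, Fech and Urod, which make heme, and Blvra and Blvrb, which reduce the pigment left when heme is broken down. Members were taken by gene symbol, and the set was chosen by the FPKM values of these same 3 libraries, as known from earlier results. Those values and the changes between libraries are therefore given as a description, without a test.

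The study examined segmental warm ischemia and reperfusion of the liver in C57BL/6J mice of 8 to 10 weeks, which were labelled male. All mice were fasted for 12 h and had a laparotomy under chloral hydrate. The sham mice had no vessel closed, and their livers were taken 90 min after the laparotomy. In the WI mice the vessels to the left and median lobes, 70% of the liver, were clamped for 90 min, and in the IR mice the clamp was then released for 120 min of reperfusion. The study assigned 6 mice to each group, and 1 RNA library per group was analysed here, so that no value below has a replicate and no test over animals was possible. Whether a library held RNA of 1 mouse or of several, and whether blood was flushed from the livers, is not given in the sources used here.

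Values are FPKM, fragments per kilobase of transcript, which the study describes as scaled to the number of mapped reads. Whether the libraries were also scaled to each other is not stated. The 95% bounds that were deposited beside the values are given with them. These bounds express the error of the estimate within a library and not the spread between mice. A gene was called changed when FPKM + 1 differed at least 2-fold, and it was recorded separately whether the bounds of both libraries failed to overlap. Log2 changes are differences of log2(FPKM + 1), a scale that understates the change of genes near 0. The background is the share of genes that received the same call, out of the 10792 that reached an FPKM of 1 in any library.

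Some facts of the libraries touch every result. The files hold no counts, but the study lists uniquely aligned read pairs per library, most in WI and fewest in IR. The lowest values put WI at 1.11 times and IR at 0.793 times the depth of sham. These ratios were inferred from FPKM and also carry any scaling between the libraries. The read pairs listed by the study put IR nearer to sham. The summed FPKM was 475754 in sham, 487912 in WI and 712423 in IR. The libraries labelled sham and WI did not carry the male pattern of their label. Xist, the RNA of the inactive X chromosome, had an FPKM of 18.9 in sham, 20.1 in WI and 1.29 in IR, whereas the Y-linked Eif2s3y was listed at 0 in sham and WI and reached 13.2 in IR. Every comparison with IR is thus also a comparison of libraries that differ in these sex-linked genes, and with 1 library per group the condition and that difference cannot be told apart. Of the 10 hepatocyte markers, 9 were measured, with Apoa1 at 7629.9, 4239 and 8799 and Ttr at 4241, 4591 and 5765 in sham, WI and IR. Alb, the albumin gene, was listed at 0 in all 3 with the software's status for a locus of too many reads.

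Hemoglobin is built from alpha and beta globin chains, each holding a heme. Its mRNAs are made in erythroid precursors of the marrow and spleen and remain in young red cells, while mature red cells no longer transcribe genes. Most heme synthesis outside erythroid cells takes place in the liver, where cytochrome P450 proteins use it, and there Alas1 rather than Alas2 catalyses the committed step. Heme is degraded by heme oxygenase to biliverdin, iron and carbon monoxide, and biliverdin reductase converts biliverdin to bilirubin.

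The blood mRNAs were close to sham or lower in WI and were higher in IR, whereas the heme enzymes stayed within 2-fold in all comparisons. After 120 min of reperfusion, 4 of 4 blood mRNAs were at least 2-fold above WI, from 2.69-fold for Hba-a1 to 5.80-fold for Hba-a2 in FPKM. The same call was given to 5.78% of all genes. The Hba-a1 and Hba-a2 rows carry the same locus in the files, so that they are not separate measurements in that count. Their sum in IR was 3.69 times that in WI. None of the 5 heme enzymes was called in that comparison, and their log2 changes ran from -0.51 to 0.40. The plot of the members by library shows both patterns side by side.

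**Figure D1:**
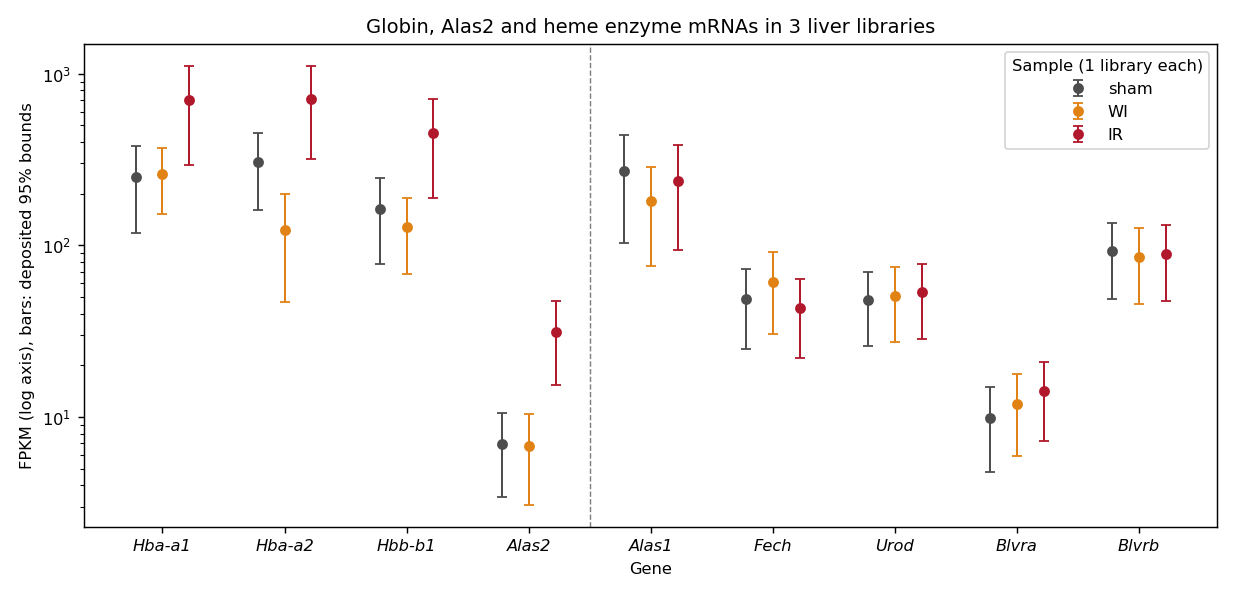
FPKM on a log axis for the 4 blood mRNAs (left of the dashed line) and the 5 heme enzymes (right) in sham, WI and IR, with 1 library each and bars for the deposited 95% bounds. The IR point lies above the other two for each blood mRNA, with Alas2 at 31.4 against 6.97 and 6.74, while the 3 points of each heme enzyme lie close together.

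The promoter sequences of the blood mRNAs are shown first because these genes moved together in the IR library. Each is the 250 bases before the start site in RefSeq on GRCm38.p6, which is mm10, read along the strand of the gene from 5′ to 3′. Capitals mark matches on either strand to 3 motifs, which do not overlap in these windows. GATAA is the core bound by GATA factors, CACCC is bound by Kruppel-like factors and CCAAT is bound by NF-Y. A match on the opposite strand appears in the printed strand as the complementary letters. Both alpha genes were identical over 297 aligned bases once shifted by 3, a stretch that runs on past the start site, so that only Hba-a1 is printed. The beta genes are named Hbb-bs and Hbb-bt by RefSeq, and they stand at the rows called Beta-s and Hbb-b1 in the files. The Alas1 window is given for contrast, as the gene for the same reaction in hepatocytes.
Hba-a1, chr11:32283422-32283671, plus strand: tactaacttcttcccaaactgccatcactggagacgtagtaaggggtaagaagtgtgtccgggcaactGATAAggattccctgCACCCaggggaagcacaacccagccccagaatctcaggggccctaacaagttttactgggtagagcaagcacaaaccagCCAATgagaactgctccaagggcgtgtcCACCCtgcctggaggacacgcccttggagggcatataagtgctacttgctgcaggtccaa
Hbb-bs, chr7:103827929-103828178, minus strand: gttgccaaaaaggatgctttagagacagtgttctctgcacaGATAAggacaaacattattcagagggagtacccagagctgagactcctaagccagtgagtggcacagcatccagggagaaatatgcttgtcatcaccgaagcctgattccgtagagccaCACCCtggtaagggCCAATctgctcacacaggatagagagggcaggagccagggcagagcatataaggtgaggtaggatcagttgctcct
Hbb-bt, chr7:103813924-103814173, minus strand: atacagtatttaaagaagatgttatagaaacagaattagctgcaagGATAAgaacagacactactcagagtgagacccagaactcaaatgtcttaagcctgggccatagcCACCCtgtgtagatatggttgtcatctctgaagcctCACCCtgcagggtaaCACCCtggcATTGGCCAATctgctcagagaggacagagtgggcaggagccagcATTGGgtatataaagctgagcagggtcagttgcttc
Alas2, chrX:150547167-150547416, plus strand: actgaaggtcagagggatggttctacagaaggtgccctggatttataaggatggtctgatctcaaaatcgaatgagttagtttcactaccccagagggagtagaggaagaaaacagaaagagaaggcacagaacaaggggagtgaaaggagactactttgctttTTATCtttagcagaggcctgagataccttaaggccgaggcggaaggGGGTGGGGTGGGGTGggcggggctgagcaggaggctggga
Alas1, chr9:106247955-106248204, minus strand: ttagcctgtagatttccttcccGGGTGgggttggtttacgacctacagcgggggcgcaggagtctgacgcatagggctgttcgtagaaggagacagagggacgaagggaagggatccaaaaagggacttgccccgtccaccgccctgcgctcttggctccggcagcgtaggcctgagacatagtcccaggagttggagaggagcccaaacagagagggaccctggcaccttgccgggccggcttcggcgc

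All of the printed blood genes held a GATAA match and at least 1 CACCC match, and the 3 globin windows also held CCAAT. The GATAA match began 182 bases before the start site in Hba-a1, 209 in Hbb-bs, 204 in Hbb-bt and 86 in Alas2, where it lay on the opposite strand. Alas2 held 3 CACCC matches on the opposite strand, which began 40, 35 and 30 bases before the start, and no CCAAT. In Hbb-bt a pair of CCAAT matches on opposite strands touched each other, beginning 80 and 75 bases before the start. The Alas1 window held a CACCC match 228 bases before the start and neither of the other motifs. Of the 32841 RefSeq promoter windows of 250 bases, 22.6% held GATAA, 52.0% held CACCC, 33.9% held CCAAT and 3.45% held all 3. A match is a run of letters and not a measured binding site.

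Hba-a1 and Hba-a2 encode the adult alpha chain. Both rows carried the same locus in the files, chr11:32283672-32284493 of mm10, although RefSeq places Hba-a2 separately at chr11:32296492-32297310. In GENCODE vM1 on the older build NCBIM37 the coding sequences, 429 bases each, differed at a single position, C381T, with Hba-a1 first and positions counted from the first base of the start codon. The 25 coding bases around that position, from 369 to 393, are printed from 5′ to 3′ with the differing base in capitals, because reads that do not cross it cannot be assigned to either gene by sequence within the coding part.
Hba-a1, NCBIM37 chr11:32184331-32184355, plus strand: tgcctctctggaCaaattccttgcc
Hba-a2, NCBIM37 chr11:32197148-32197172, plus strand: tgcctctctggaTaaattccttgcc

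Hba-a1 had an FPKM of 249 in sham (95% bounds 118 to 379.5), 260.0 in WI (152 to 368) and 700.2 in IR (293 to 1107). IR was thus the highest, and its bounds overlapped those of the other libraries. The log2 change was 0.06 from sham to WI, 1.43 from WI to IR and 1.49 from sham to IR. Hba-a2 had 305 in sham (160.5 to 450.2), 123 in WI (46.8 to 199.9) and 715 in IR (319.9 to 1110.2). Its WI value was the lowest and its IR value the highest, with bounds of IR apart from WI and overlapping sham. The log2 changes were -1.30, 2.53 and 1.22 in the same order. Hba-a2 was the 1 blood mRNA called lower in WI than in sham, at 0.404 times the sham value, with overlapping bounds, and 1.1% of all genes received that call.

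The split of FPKM between the Hba-a1 and Hba-a2 rows, which carry the same locus in the files, differed most in WI. Hba-a1 took 44.9% of the alpha FPKM in sham, 67.8% in WI and 49.5% in IR. The alpha sum was 554 in sham, 383 in WI and 1415 in IR, which put WI at 0.692 times sham, so that the sum was not called in that comparison. Between WI and IR the alpha sum was 3.69 times higher.

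Hbb-b1 encodes an adult beta chain. Its row and the Hbb-b2 row carried the same locus, chr7:103812524-103813923, where RefSeq places Hbb-bt, and the Beta-s row lay at chr7:103826523-103827928, the position of Hbb-bs. In GENCODE vM1 the genes named Hbb-b1 and Hbb-b2 lay apart, with Hbb-b1 at the higher coordinates, as Hbb-bs lies above Hbb-bt in RefSeq. By that order the GENCODE Hbb-b1 stands for the Beta-s row, and the GENCODE Hbb-b2 for the locus of the Hbb-b1 and Hbb-b2 rows. Their coding sequences, 444 bases each, differed at C417T, which does not separate the Hbb-b1 and Hbb-b2 rows of the files. The 25 coding bases from 405 to 429 are printed in the same way under the GENCODE names.
Hbb-b1, NCBIM37 chr7:110975194-110975218, minus strand: ggctggagtggcCgctgccctggct
Hbb-b2, NCBIM37 chr7:110961185-110961209, minus strand: ggctggagtggcTgctgccctggct

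Hbb-b1 had an FPKM of 163 in sham (78.1 to 248), 128 in WI (68.3 to 188) and 453 in IR (189.8 to 716). IR was highest, and its lower bound stood just above the upper bound of WI. The log2 changes were -0.35, 1.81 and 1.47. Beta-s, the most abundant globin row, had 457 in sham (219.9 to 695), 303 in WI (153 to 454) and 1272 in IR (503 to 2041). Its IR bounds were apart from WI and overlapped sham, as for Hbb-b1. Hbb-b2 was at 26.8 in sham, 0.00424 in WI and 76.1 in IR with a lower bound of 0 in each, and reads that it shares with Hbb-b1 cannot be told apart.

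Of the beta rows, Beta-s held its share, with 70.6% of the beta FPKM in sham, 70.3% in WI and 70.6% in IR. Hbb-b1 had 25.2%, 29.7% and 25.1%, and Hbb-b2 had 4.14% in sham, nearly none in WI and 4.22% in IR. The beta sum was 647 in sham, 431 in WI and 1801 in IR, and IR was 4.17 times WI. The ratio of alpha to beta FPKM was 0.856 in sham, 0.889 in WI and 0.786 in IR. These alpha and beta rows together took 0.253% of the summed FPKM in sham, 0.167% in WI and 0.451% in IR. Cygb, a globin of stromal cells, had 3.95, 3.51 and 2.53 and was not called. The embryonic globins Hba-x, Hbb-y, Hbb-bh1 and Hbb-bh2 were listed at 0 in every library and are named for that.

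**Figure D2:**
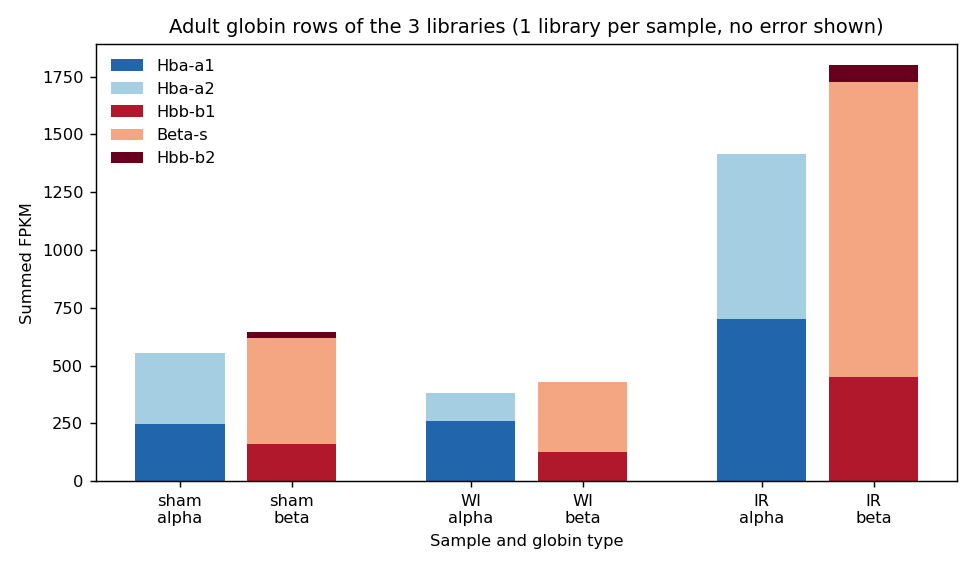
Summed FPKM of the alpha rows (Hba-a1, Hba-a2) and the beta rows (Hbb-b1, Beta-s, Hbb-b2) in sham, WI and IR, stacked by row, with 1 library each and no error shown. Alpha and beta stood at 554 and 647 in sham, 383 and 431 in WI and 1415 and 1801 in IR, and the boundary between Hba-a1 and Hba-a2 shifted in WI.

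Alas2, on the X chromosome at chrX:150547417-150570622, encodes the aminolevulinate synthase of erythroid cells. It had an FPKM of 6.97 in sham (3.39 to 10.5), 6.74 in WI (3.07 to 10.4) and 31.4 in IR (15.4 to 47.4). The sham and WI values were nearly equal, and the bounds of IR were apart from both. The log2 changes were -0.04, 2.07 and 2.02, and IR was 4.66 times WI and 4.51 times sham. Alas2 was the 1 blood mRNA whose bounds were apart between IR and sham, a call given to 2.7% of all genes.

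Unlike the globins, Alas2 did not share its locus with another globin or heme gene row. Alas2 stood at 0.580% of the summed alpha and beta globin FPKM in sham, 0.827% in WI and 0.976% in IR. Of the 288 X-linked genes that passed the filter, 3.82% were at least 2-fold higher in IR than in WI, against 5.81% of the 10500 autosomal genes. The next gene, Apex2, which encodes a DNA repair endonuclease, began 884 bases beyond the end of the Alas2 row. It was named after its values were seen, which were 1.63 in sham, 1.59 in WI and 5.92 in IR, a log2 change of 1.42 from WI to IR with bounds apart. RefSeq draws Apex2 over the whole of Alas2, and reads from the overlap cannot be told apart without strand.

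From sham to WI, 0 of 4 blood mRNAs were called higher, where the background was 0.751%, and 1 was called lower. Their median log2 change was -0.20, beside 0.02 for all genes. None had bounds apart in either direction, a call given to 0.195% of all genes for higher and 0.482% for lower. From WI to IR their median was 1.94 beside 0.03, and 3 of 4 had bounds apart, with Hba-a1 the exception, beside 3.22% of all genes. None was lower, a call given to 1.43% at 2-fold and to 0.398% by the bounds. From sham to IR, 4 of 4 were called higher with a median of 1.48 beside 0.05, where the background was 5.35%. The lower call was given to 2.15% of all genes at 2-fold and to 1.12% by the bounds. The comparisons share libraries, so that the low WI value of Hba-a2 enters the first with one sign and the second with the other.

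These calls depended in part on how the libraries were scaled. When FPKM was rescaled to a common sum per library, the median of all genes shifted to -0.41 between WI and IR and to -0.42 between sham and IR. The share of higher among all 2-fold calls went from 80.2% to 27.9% and from 71.3% to 19.5%. Relative to that median all 4 blood mRNAs were at least 2-fold higher in IR than in both other libraries. Their values ran from 1.06 for Hba-a2 against sham to 2.39 for Hba-a2 against WI. The scaling factor of a library cancels from such a difference apart from the pseudocount, so that this is not a separate check of the calls. Taken as they stood, the rescaled values left 3 of 4 called against WI, with Hba-a1 at 0.88, and 1 of 4 against sham, which was Alas2 at 1.48. Fech, at -1.04 between WI and IR, then passed 2-fold as the 1 heme enzyme to do so, and its change relative to the median of all genes was -0.63.

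**Figure D3:**
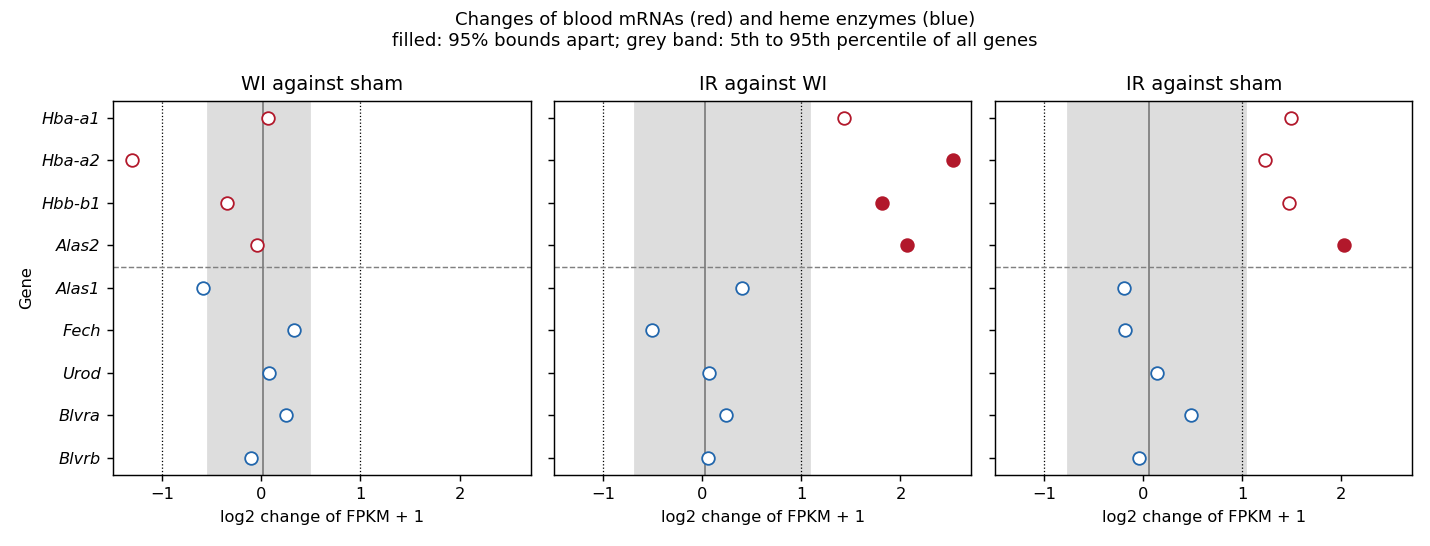
Log2 change of FPKM + 1 for each member in the 3 comparisons, red for blood mRNAs and blue for heme enzymes, filled where the deposited 95% bounds did not overlap, with dotted lines at 2-fold, a grey line at the median of all genes and a grey band from their 5th to 95th percentile. Between WI and IR the blood mRNAs lie from 1.43 to 2.53, to the right of the band, which ends at 1.08, and the heme enzymes lie inside it.

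The heme enzymes of the synthetic pathway are described in the order of their reactions. Alas1, at chr9:106233455-106247954, encodes the synthase of hepatocytes and other cells, and its amount sets the pace of heme synthesis in liver. It had an FPKM of 271 in sham (103 to 439.6), 180.2 in WI (75.9 to 285) and 238 in IR (93.6 to 382). WI was the lowest library, with overlapping bounds throughout. The log2 change of -0.59 from sham to WI was the lowest of the 5 heme enzymes and lay just below the 5th percentile of all genes, -0.54.

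Both synthases entered their ratio, Alas1 being lower in WI than in sham and Alas2 higher in IR than in WI. Alas1 stood at 38.9 times the FPKM of Alas2 in sham, 26.7 times in WI and 7.57 times in IR. Alas1 remained the higher in every library.

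Urod, at chr4:116990217-116994375, encodes uroporphyrinogen decarboxylase, a cytosolic enzyme in the middle of the pathway. It had 48.0 in sham (25.7 to 70.3), 50.8 in WI (27.2 to 74.4) and 53.2 in IR (28.4 to 77.9). These values differed by far less than the width of their bounds, with log2 changes of 0.08, 0.06 and 0.14. Fech encodes ferrochelatase, which inserts iron into protoporphyrin as the last step of synthesis. It had 48.7 in sham (24.9 to 72.6), 61.3 in WI (30.6 to 92.0) and 42.8 in IR (22.1 to 63.5). WI was the highest library for Fech, where it had been the lowest for Alas1, and the log2 change from WI to IR was -0.51 with overlapping bounds. Its IR value was the lowest of the 3, with overlapping bounds. Fech mRNA is also made in erythroid cells, and their part in the Fech values was not tested.

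Blvra and Blvrb encode the biliverdin reductases that act on the adult and the fetal form of biliverdin. Blvra, at chr2:127070657-127097084, had 9.81 in sham (4.76 to 14.9), 11.8 in WI (5.90 to 17.8) and 14.1 in IR (7.19 to 21.0). Its log2 change from sham to IR was 0.48, the highest of the 5 heme enzymes in that comparison, with overlapping bounds. Blvrb, at chr7:27447978-27465981, had 92.3 in sham (48.8 to 136), 85.6 in WI (45.3 to 126) and 89.4 in IR (47.3 to 131). Blvrb had log2 changes of -0.11, 0.06 and -0.04, and stood 9.41, 7.23 and 6.34 times above Blvra in sham, WI and IR.

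Of the 5 heme enzymes 0 were called in any of the 3 comparisons, and their bounds overlapped in every case. With both directions of the call given to few genes in all, as the shares above show, a count of 0 of 5 is near the background and is not particular to these enzymes. Several of their small differences also turned sign when FPKM was rescaled to a common sum, which lowered Alas1, Urod and Blvrb in IR below WI, at -0.15, -0.47 and -0.48. Their median log2 change was 0.08 from sham to WI, 0.06 from WI to IR and -0.04 from sham to IR. The blood median exceeded the heme enzyme median by 1.88 between WI and IR and by 1.52 between sham and IR, and was 0.27 under it (a difference of -0.27) between sham and WI. Since FPKM is per length, levels can be ordered within a library. In sham the order was Hba-a2, Alas1, Hba-a1, Hbb-b1, Blvrb, Fech, Urod, Blvra and Alas2, and only Urod and Blvra were neighbours with bounds apart. In IR the 3 globin members led and Alas2 stood above Blvra, with no neighbours apart. Alas2 ranked 4971 among all genes in sham, 5087 in WI and 1925 in IR, whereas Alas1 ranked 297, 451 and 421.

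The whole pathway of heme synthesis holds 9 genes, all of which passed the filter. Alas2 was the 1 gene of the 9 called between WI and IR and again between sham and IR. The higher call was given to 5.78% of all genes against WI and 5.35% against sham. Of the 9 genes 0 were called between sham and WI. The median of the list was 0.06 between WI and IR, beside 0.03 for all genes, and -0.40 beside -0.41 after rescaling to a common sum. The lowest change between sham and IR belonged to Cpox, coproporphyrinogen oxidase, named after its values were seen, which had 49.1 in sham, 39.2 in WI and 26.9 in IR with overlapping bounds, a log2 change of -0.85. Enzymes of the same pathway thus lay on both sides of 0, with 6 of 9 above it and 3 below in each comparison on the deposited scale.

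Heme breakdown holds 4 genes, of which 1 was called, higher in IR than in both other libraries. That call was given to 5.78% of all genes against WI and 5.35% against sham. Hmox1, the inducible heme oxygenase, had 22.6 in sham (12.2 to 33.1), 18.1 in WI (9.68 to 26.5) and 279.8 in IR (120.1 to 439.6). The bounds of IR were apart from both other libraries, and the log2 change from WI to IR was 3.88. Hmox2, the constitutive form, had 25.6, 19.7 and 24.9, so that Hmox1 went from 0.883 times Hmox2 in sham to 11.2 times in IR. The step after heme oxygenase, given by Blvra and Blvrb above, was not called.

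**Figure D4:**
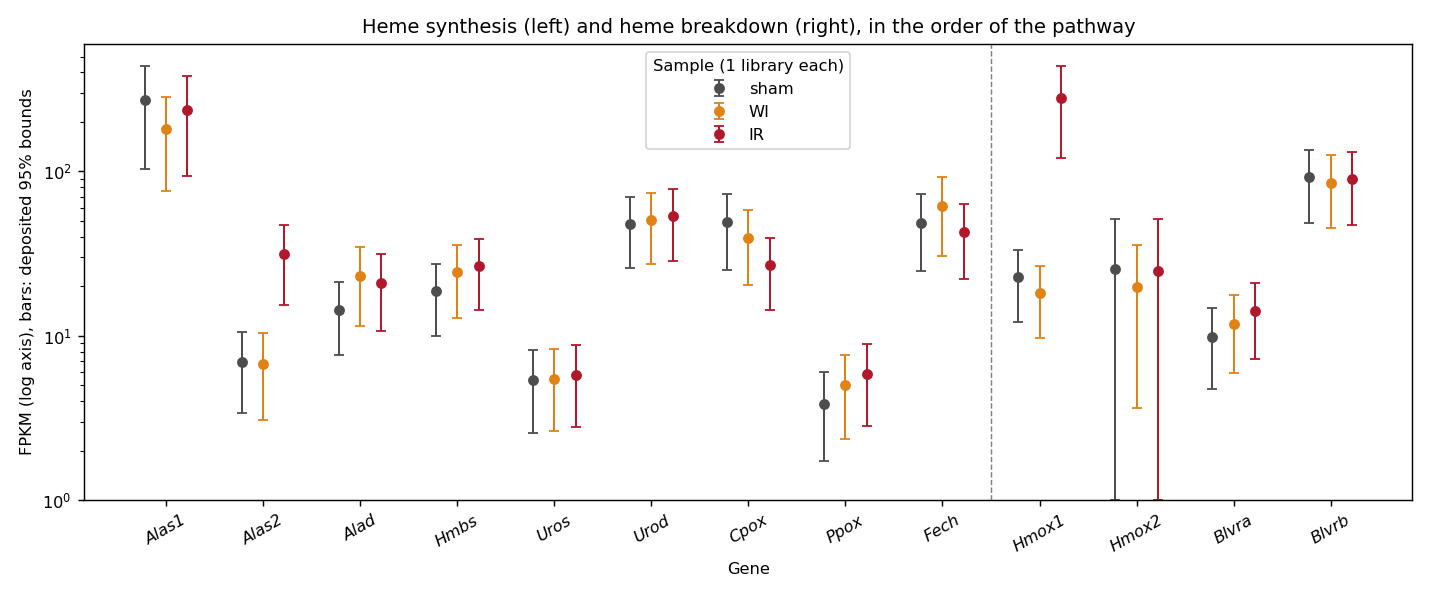
FPKM on a log axis for the 9 genes of heme synthesis in the order of their reactions, with both synthases first, and the 4 genes of heme breakdown, in sham, WI and IR, with 1 library each and bars for the deposited 95% bounds. Alas2 and Hmox1 are the genes whose IR point stands apart, at 31.4 and 279.8, and the lower bounds of 0 of Hmox2 in sham and IR are drawn to the foot of the axis.

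Genes that bind or carry heme and hemoglobin formed a list of 23, of which 22 passed the filter. None was called higher in any comparison. Haptoglobin Hp, the plasma protein that binds free hemoglobin, had 3003 in sham, 3559 in WI and 4608 in IR. Hemopexin Hpx, which binds free heme, had 5326, 5429 and 7498, and Ambp, the precursor of the heme-binding alpha-1-microglobulin, had 1389, 1628 and 2041. All 3 were highest in IR on the deposited scale without reaching 2-fold, and none was highest in IR after rescaling to a common sum. Cd163, the macrophage receptor for the haptoglobin and hemoglobin complex, was the 1 gene called lower. It had 16.2 in sham, 4.02 in WI and 2.84 in IR, with both ischemic libraries apart from sham by the bounds. The lower call against sham was given to 1.1% of all genes in WI and 2.15% in IR.

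The 10 genes of bilirubin handling did not move together. Ugt1a1, which conjugates bilirubin, had 228 in sham, 245 in WI and 146 in IR, with a lower bound of 0 in each and exons shared with other Ugt1a genes. Slco1b2, an uptake carrier of the sinusoidal membrane, had 299.6, 345 and 185. Abcc2, which exports conjugated bilirubin into bile, had 87.3, 94.3 and 42.6 and was called lower in IR than in both. Slco1a1, another uptake carrier, was at 14.5, 9.17 and 37.9 and was called higher in IR. The glutathione transferases Gsta1 and Gsta2, close paralogs which can bind bilirubin, were called higher in WI, with Gsta1 at 1.25, 12.6 and 8.36 and Gsta2 at 19.5, 53.6 and 39.8. Gsta3, the most abundant of the family, was at 765, 1063 and 835 and was not called.

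Among 16 regulators of Alas1 and other heme genes, 2 were called higher between WI and IR, beside 5.78% of all genes, a difference of about 1 gene that is not particular to the list. Nr1d1, the nuclear receptor REV-ERB alpha, which takes heme as its ligand, had 5.06 in sham, 16.7 in WI and 47.0 in IR. It was called higher at each step, with bounds apart between sham and WI and overlapping between WI and IR. Clpx, a mitochondrial unfoldase that acts on aminolevulinate synthase, had 30.6, 21.1 and 50.6 and was called between WI and IR with overlapping bounds. Lonp1, a mitochondrial protease that degrades Alas1 protein, had 34.8, 38.2 and 44.7. Nr1i3, the xenobiotic receptor CAR, which induces Alas1, had 50.8, 52.9 and 36.6. Neither of these was called.

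Other mRNAs of the red cell lineage did not follow the globins and Alas2. Of the 25 erythroid markers listed, 24 were matched, and 16 of those were under an FPKM of 1 in every library. The summed level of these 16 was 1.76 in sham, 1.70 in WI and 1.20 in IR. Slc4a1, Rhd and Epb4.2 encode membrane proteins of the red cell and were named for their low values after these were seen. Slc4a1, the anion exchanger, had 0.0489, 0.00725 and 0.123, and Rhd and Epb4.2 were listed at 0 in all 3. The 8 markers that passed the filter gave 0 calls in any comparison, with a median of -0.23 between WI and IR beside 0.03 for all genes. That count rests in part on the pseudocount of 1 for genes this low, since with a pseudocount of 0.01 there were 2 calls among the 8 between WI and IR and 2 between sham and IR, and rescaling to a common sum gave 1 in each. The most abundant of these were Tfrc, the transferrin receptor, with 7.90, 8.86 and 7.21, Bpgm, a glycolytic enzyme of red cells, with 5.19, 4.82 and 6.92, and Gypc, a membrane protein, with 3.64, 5.03 and 2.85. Tfrc, Bpgm and Gypc are made in other tissues too. In whole tissue a larger number of cells of a type and more RNA per cell cannot be told apart.

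Markers of other blood cells moved with the blood mRNAs in IR in part. Of the 12 matched neutrophil markers 7 passed the filter, and 7 of 7 were called higher in IR than in both other libraries with bounds apart. The 2-fold call was given to 5.78% of all genes against WI and 5.35% against sham, and the bounds call to 3.22% and 2.7%. Mmp8, Cxcr2 and Ngp passed the filter only through their IR value, so that their calls were in part fixed by the filter. Their list summed to 26.4 in sham, 20.1 in WI and 472 in IR, and S100a8, an abundant calcium-binding protein of neutrophils, had 13.6, 9.17 and 212. S100a9, its partner, had 8.86, 8.07 and 204, and Retnlg had 1.53, 1.18 and 36.6. The lower markers were Mmp8 with 0.139, 0.0573 and 8.59, Csf3r with 1.17, 0.689 and 4.61, Cxcr2 with 0.127, 0.163 and 3.65 and Ngp with 0.291, 0.1997 and 1.80. The matched markers under 1 in every library were Mpo, Camp, Ltf, Mmp9 and Elane, and they were named after their values were seen. Mpo had 0.0598, 0.0131 and 0, and Camp had 0.152, 0.0673 and 0.0953, each highest in sham. Highest in IR were Ltf with 0.124, 0.0447 and 0.237, Mmp9 with 0.238, 0.426 and 0.685 and Elane with 0.0955, 0 and 0.118. The globin sum and Alas2 were level or lower in WI, as was the neutrophil list, and the part of blood content in these values was not tested.

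The other lists differed from this. None of the platelet markers was called higher, with Pf4 at 1.05, 1.24 and 2.92 and Itgb3 at 1.99, 0.760 and 2.18, and Clec1b, which liver macrophages also express, fell from 22.0 in sham to 9.91 in WI and 7.30 in IR. The platelet list summed to 27.4, 13.5 and 15.7. Lymphocyte markers gave 0 calls and summed to 24.8, 23.2 and 25.2, a sum that Ccl5 led with 11.8, 11.99 and 19.2. The other 5 of the 6 that passed the filter were below 0 between sham and IR, with a list median of -0.68, Nkg7 having 2.58, 2.23 and 0.851 and Gzma 2.67, 3.34 and 2.19. Of the 9 macrophage markers 7 were called lower in IR than in sham, a call given to 2.15% of all genes. The 7 included Clec4f, a lectin of Kupffer cells, at 115, 65.3 and 32.7 and Cd5l at 203, 90.4 and 59.0. Emr1, Vsig4, Csf1r, Timd4 and Cd163 were the other 5. Cd68, at 18.5, 12.3 and 18.5, and Marco, at 20.9, 12.6 and 25.3, were not called. The macrophage list summed to 513, 258 and 168. Of the hepatocyte markers Apoa1 and the fibrinogen gene Fgb were called higher between WI and IR, Fgb having 2180.1, 2596 and 5290.1.

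**Figure D5:**
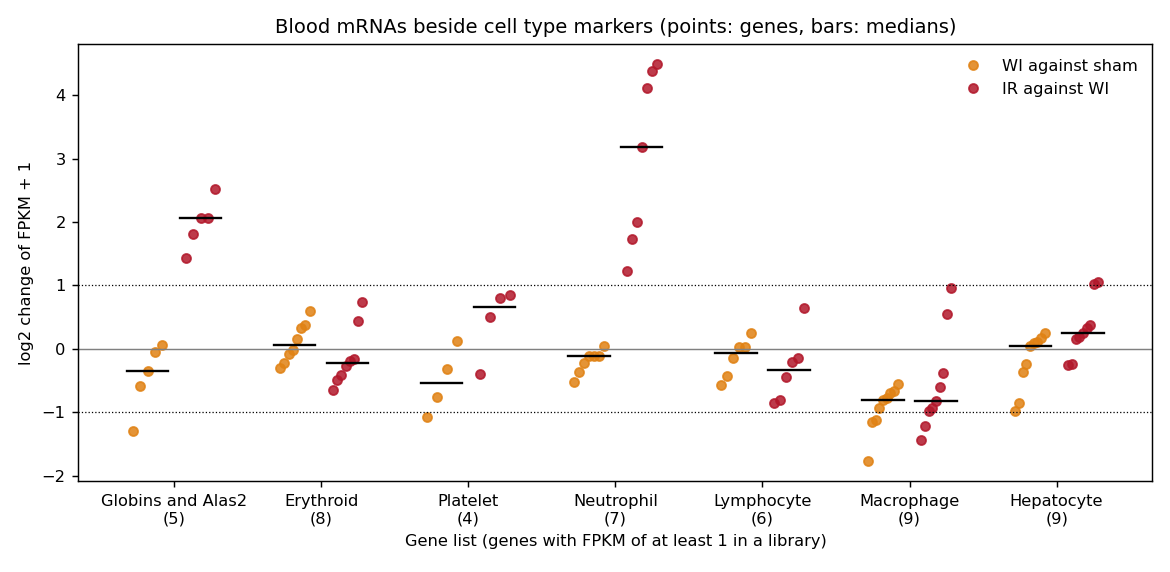
Log2 change of FPKM + 1 from sham to WI (orange) and from WI to IR (red) for the blood mRNAs with Beta-s and for the markers of each cell type that passed the filter, whose number stands under each list, with a bar at the median and dotted lines at 2-fold. Between WI and IR the neutrophil markers have a median of 3.18 and the erythroid markers one of -0.23. The neutrophil markers Mmp8, Cxcr2 and Ngp passed the filter only through IR.

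The genes nearest to the members in pattern were sought among the 6630 genes that reached an FPKM of 5 in any library, by the Euclidean distance between the pairs of log2 changes from sham to WI and from WI to IR. With 3 libraries many genes must lie near any pattern, and the likeness is a description. For Alas2 the nearest 5 were Nop58, Ier5, Ralgds, Pvr and Fabp4. Nop58, which encodes a protein of small nucleolar ribonucleoproteins, had 7.31 in sham, 7.02 in WI and 32.6 in IR at a distance of 0.0101. For the summed member globins the nearest were Dot1l, Slc16a6, Il4ra, Rcan1 and Slco1a1, the carrier named above, with Dot1l at a distance of 0.0561. For Alas1 they were Cep85l, Nrg4, Wipi1, Bnip3 and Bgn, and the nearest, Cep85l, had 6.67, 4.05 and 5.70.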

How the data were processed

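Total liver RNA of 3 groups of mice was sequenced, and 1 library per group was analysed. Per the labels and the study's methods, the authors aligned the reads to mm10 with TopHat2 2.0.9 and estimated the deposited FPKM values and their 95% bounds with the Cufflinks 2.0.2 programs. Cuffdiff scales libraries to each other by default, and the files do not state the scaling. Strand use in the counting is not given in the sources used here.

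From these values the differences of log2(FPKM + 1) were computed with Python 3.11.15, numpy 2.4.6 and pandas 2.3.3. Genes that reached an FPKM of 1 in any library were kept. A change was called at 2-fold, and bounds that did not overlap were counted separately. The calling code was checked on simulated data. No p-value was computed, since each group had 1 library and FPKM are not counts. Bounds and relative depth limit the precision. Symbols were matched through RefSeq synonyms, and 4 marker genes without a match (Ahsp, Ly6g, Trbc1 and Trbc2) were left out. Starts in the files count from 0 and were raised by 1.

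The members and gene lists were chosen with earlier results of these data known. Besides members, genes of the lists were named when changed at least 2-fold or among the 3 most abundant of their list, with exceptions stated where they occur, and a few so named are given in figures or counts only. The alternatives were pseudocounts of 0.1 and 0.01, rescaling to a common sum or by the median ratio, no filter or an FPKM of at least 1 in all samples, thresholds of 1.5-fold and 3-fold, genes with status OK only, the bounds in place of the fold, and summed globin paralogs. Rescaling to a common sum without the major urinary protein (Mup) genes and genes of another status was added after the data were seen.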

Additional observations from a re-analysis of the deposited data

How the results depend on the processing

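The blood mRNAs kept their direction in IR under every alternative. Of the 4, 3 were called between WI and IR after rescaling to a common sum, where Hba-a1 had 0.88, and 3 with a 3-fold threshold. Between sham and IR the count of 4 went to 1 after rescaling to a common sum, to 1 with a 3-fold threshold and to 1 by the bounds, the cause in the first case being the lower scaling of IR. The 1 call between sham and WI went to 0 with a 3-fold threshold and to 0 by the bounds. Among the heme enzymes the count of 0 went to 1 between WI and IR after rescaling to a common sum (Fech) and to 1 between sham and WI with a 1.5-fold threshold (Alas1). The difference of medians ranged from 1.88 to 1.99 between WI and IR and from 1.52 to 1.53 between sham and IR. Rescaling could hardly move this difference, since the factor of a library cancels from it apart from the pseudocount. Between sham and WI the difference of medians went from -0.27 to -0.61 when globin paralogs were summed. Rescaling without Mup genes, added after the data were seen, left 4 of 4 called between WI and IR and 3 of 4 between sham and IR. Of 162 values of single members under the alternatives 15 moved by more than the error from the bounds, all of them after rescaling to a common sum. No change past 2-fold turned its sign, but 10 changes under 2-fold did, all of heme enzymes, 6 after rescaling to a common sum and the others without Mup genes. Of 678 values of gene lists 129 moved, no median past 2-fold turned its sign and 25 medians under 2-fold did, among them heme breakdown between WI and IR, from 0.28 to -0.24 after rescaling to a common sum, and the median of the sex-linked genes was not recomputed. No paired analysis was possible because each group had 1 library, and for the same reason no replicate could be left out. The depth of IR was put at 0.793 times that of sham by the lowest values and nearer to sham by the study's aligned pairs. It limits the precision of IR for low genes.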
